A study of Mus musculus with 2 samples.

Results

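The genes described here serve antibody-secreting plasma cells and the transport of immunoglobulin A (IgA) across the gut lining. The 9 members, Jchain, Mzb1, Sdc1, Tnfrsf17, Prdm1, Irf4, Fkbp11, Ell2 and Pigr, were chosen by name, and every probe set annotated to 1 of them alone was used, which gave 17 of the 45101 probe sets on the array. A probe set is a group of short probes that together report one transcript. The expression values come from the small intestine of mice on a BALB/c background aged 6 to 8 weeks, in a study of IL-9, mast cells, gut permeability and reactions to oral antigen. One array carried RNA from 3 IL-9 transgenic mice combined into 1 pool, and the other carried RNA from 3 wild-type mice combined into 1 pool, with no treatment given to either. The labels do not say which promoter drives the IL-9 transgene or in which cells. With 1 array per group the spread between mice could not be measured, so no test was possible and no p-value is printed.

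IgA is the main antibody of the gut. Plasma cells of the lamina propria, the connective tissue under the epithelium, make IgA and join its subunits with the J chain. The polymeric immunoglobulin receptor, encoded by Pigr, then takes the dimer through epithelial cells into the lumen. A plasma cell forms when B cell identity genes are shut off by the regulators Irf4 and Prdm1, the secretory route through the endoplasmic reticulum (ER) grows, and the elongation factor Ell2 favours the secreted form of the antibody message.

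The arrays had median intensities of 78.7 (transgenic) and 78.3 (wild type). The probe set of Il9 read 62.2 in transgenic and 71.6 in wild-type tissue. The part of Il9 that the transgene holds is not named in the labels, so these readings do not check them. The ratio of the 3′ to the 5′ actin probe set, a sign of RNA integrity, was 1.33 in transgenic and 1.61 in wild-type tissue, and its part in the differences below was not tested. In whole tissue, more cells of a type and more RNA per cell cannot be told apart. Probe sets differ in how brightly they report, so levels are compared between pools and not between genes.

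Among the members, at the brightest probe set of each gene, the ER genes Mzb1 and Fkbp11 read higher in the transgenic pool. Irf4 was close behind, and the genes of IgA assembly and export, Jchain and Pigr, were nearly level. Differences are given as log2(intensity + 1) in the transgenic pool minus that in the wild-type pool, so 0.58 is 1.5-fold and 1 is 2-fold. The probe set that was brightest on average stands for its gene. By the mean over probe sets instead, Mzb1 lay at 0.60, Tnfrsf17 at 0.37, and Fkbp11 and Irf4 at 0.21. All 9 members passed the expression filter, an intensity of 78.5 in at least 1 pool, and all 9 passed it in both pools. A difference of at least 1.5-fold was seen upward in 2 of the 9 genes and downward in 0, while 1.68% of 11862 genes past the filter differed as far upward and 1.45% downward. At 2-fold there were 0 members upward and 0 downward, beside 0.607% and 0.202% of all genes. The member differences ran from -0.39 in Ell2 to 0.72 in Fkbp11, with 6 above 0 and 3 below. Their median was 0.13, beside 0.0083 over all genes past the filter. It was 0.061 with the mean over each gene's probe sets, but only 8 members passed the filter by that mean. With so few genes and no replicate array, these counts describe the pools only.

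**Figure D1:**
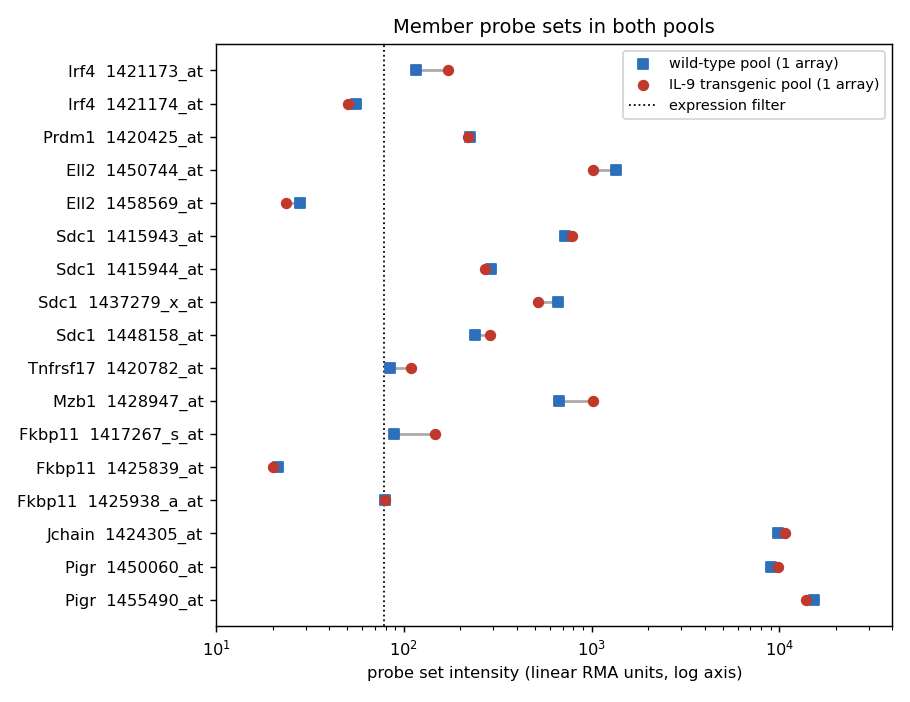
Intensity of each of the 17 member probe sets (linear RMA units on a log axis) in the wild-type pool (blue squares) and the transgenic pool (red circles), 1 array each, with the expression filter as a dotted line. The widest gaps are in Fkbp11 (147 against 88.4), Mzb1 (1020.0 against 671) and Irf4 (172 against 116), and 3 probe sets lie below the filter in both pools.

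Counted by probe set, 14 of the 17 passed the filter. Of these, 2 differed upward by 1.5-fold and 0 downward, beside 1.92% and 1.76% of 23238 probe sets past the filter. At 2-fold the member counts were 0 and 0, beside 0.512% and 0.194%. Of the 14, 8 lay above 0, 5 lay below 0 and 1 read the same on both arrays. The size of a difference can be set against the disagreement between probe sets that report the same gene. In the 4965 genes that more than 1 such probe set reports, differences varied within a gene with an SD of 0.23. This is technical spread within the pair of arrays and says nothing of differences between mice.

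**Figure D2:**
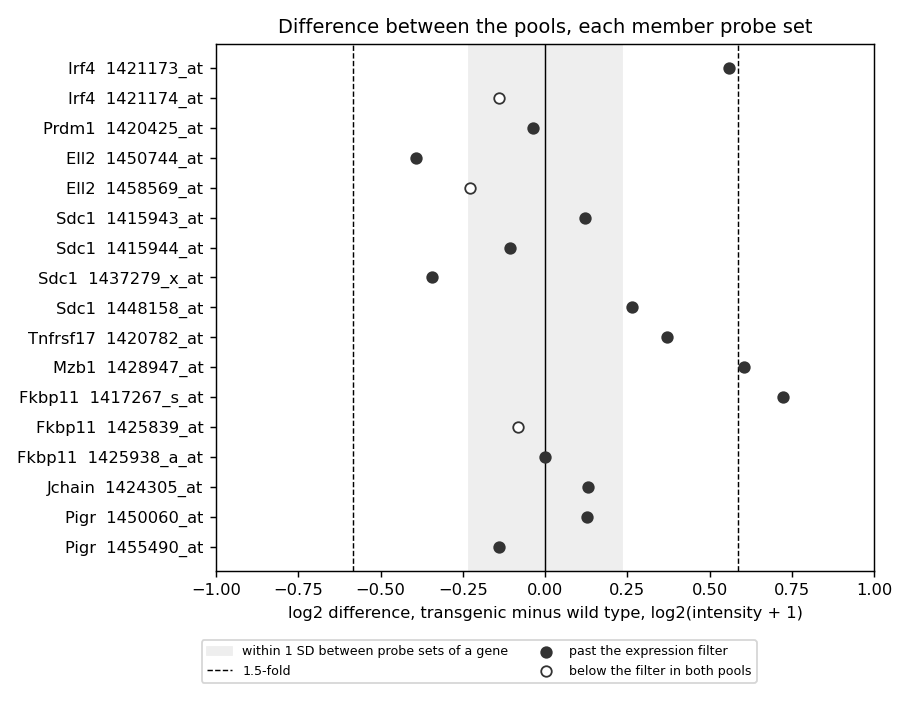
Log2 difference, transgenic minus wild type, for each of the 17 member probe sets. The grey band is 1 SD (0.23) between probe sets of one gene, dashed lines mark 1.5-fold, and open circles are below the expression filter in both pools. One probe set each of Fkbp11 and Mzb1 lies beyond the dashed line, and the other probe sets of Fkbp11 lie at or near 0.

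Of the transcriptional regulators of the plasma cell programme, Irf4 had the largest difference and Prdm1 the smallest. Irf4, an interferon regulatory factor needed for plasma cell formation, read 172 in transgenic and 116 in wild-type tissue at probe set 1421173_at, a difference of 0.56 and 1.47-fold. Its other probe set, 1421174_at, read 50.5 against 55.7, a difference of -0.14, and lay below the filter in both pools. The mean over both probe sets was 0.21, so the size and sign of the Irf4 difference depend on the probe set used. Prdm1, which encodes the repressor Blimp-1, read 220 in transgenic and 226 in wild-type tissue. That is a difference of -0.038, well inside the spread between probe sets.

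Ell2 was the only member whose probe sets all lay below 0 with a size beyond 0.23 at the brighter one. This factor of the elongation machinery read 1023 in transgenic and 1344 in wild-type tissue at 1450744_at, a difference of -0.39, or 1.31-fold lower. The dim probe set 1458569_at read 23.6 against 27.9, a difference of -0.23. Both Ell2 probe sets thus read lower in the transgenic pool, by less than 1.5-fold. Of all genes past the filter, 4.65% differed by -0.39 or less.

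The surface proteins gave small differences. Sdc1 encodes syndecan-1, the heparan sulphate proteoglycan CD138 that marks plasma cells and is also found on epithelial cells. Its 4 probe sets read 787 against 724, 270 against 291, 520 against 660 and 289 against 240 in the transgenic and wild-type pools. The differences were 0.12, -0.11, -0.34 and 0.26, 2 above 0 and 2 below, so no direction is given for Sdc1. The lowest came from 1437279_x_at, a probe set of the type that can match other transcripts.

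Tnfrsf17 encodes BCMA, the receptor through which long-lived plasma cells receive survival signals from APRIL and BAFF. Tnfrsf17 has 1 probe set, which read 109 in transgenic and 84.1 in wild-type tissue, a difference of 0.37 and 1.29-fold. The wild-type reading was only just past the filter of 78.5. Of all genes past the filter, 5.83% were at least as far above 0.

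The promoter of Tnfrsf17 is shown because it was the only one of the 9 member windows searched that held an interferon regulatory factor type motif, the class of element that Irf4 and its relatives recognise. The windows come from RefSeq on mouse build GRCm38.p6 and run from 250 bases before to 50 after an annotated start. Windows of 8 of the 9 members were searched. Mzb1 was left out of the search, so its promoter is not described. The motif, GAAA, a gap of 2 bases and GAAA again, was searched on both strands and was found in 3.44% of all 32851 windows of this length. In Tnfrsf17 the match, in capitals, lies on the minus strand of the gene from position -101 to -92, counting the start base as 0. The 250 bases before the start, chr16:11313559-11313808 on the plus strand, read 5′ to 3′ as follows.
Tnfrsf17: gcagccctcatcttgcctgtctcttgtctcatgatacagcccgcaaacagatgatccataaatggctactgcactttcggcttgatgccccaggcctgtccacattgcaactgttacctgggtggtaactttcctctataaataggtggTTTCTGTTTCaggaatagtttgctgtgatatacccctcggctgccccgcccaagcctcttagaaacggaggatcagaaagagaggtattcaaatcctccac
A match of letters is a description of the sequence and not a measured binding site.

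At the brightest probe set of each gene, the ER genes held the members with the largest differences. Mzb1 encodes a small ER protein of marginal zone B cells and plasma cells that helps antibody assembly. It read 1020.0 in transgenic and 671 in wild-type tissue, a difference of 0.60 and 1.52-fold. Of 11862 genes past the filter, 184 were at least as high, which is 1.55%. It has 1 probe set on the array, so there is no second reading of the gene to set beside it, and it lies only just past 1.5-fold.

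Fkbp11 encodes a peptidyl-prolyl isomerase of the ER membrane that is abundant in secretory cells. Probe set 1417267_s_at read 147 in transgenic and 88.4 in wild-type tissue, a difference of 0.72 and 1.65-fold, and 117 genes (0.986%) were at least as high. The others did not show it. Probe set 1425938_a_at read 79.5 in both pools, just past the filter, and 1425839_at read 20.1 against 21.4, below the filter. The mean difference over the 3 was 0.21. With the less specific probe sets left out (those whose names carry _a, _s or _x), only 1425839_at remained, at -0.083, so the Fkbp11 difference rests on 1 probe set of a less specific type. Identical readings on both arrays, as at 1425938_a_at, occurred at 1171 of 45101 probe sets.

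Fkbp11 has a pair of annotated starts. The window of the inner one is shown because it was the only searched member window that held CCACGT. This is the core of elements bound by XBP1, the factor that enlarges the ER of plasma cells. CCACGT was present on either strand in 8.31% of all windows and CCAAT in 37.4%. In the Fkbp11 window CCACGT lies on the minus strand of the gene from position 21 to 26, past the start and outside the bases printed. CCAAT, in capitals as its reverse complement, lies from -85 to -81. The 250 bases before this start, chr15:98727628-98727877 on the minus strand, read as follows.
Fkbp11: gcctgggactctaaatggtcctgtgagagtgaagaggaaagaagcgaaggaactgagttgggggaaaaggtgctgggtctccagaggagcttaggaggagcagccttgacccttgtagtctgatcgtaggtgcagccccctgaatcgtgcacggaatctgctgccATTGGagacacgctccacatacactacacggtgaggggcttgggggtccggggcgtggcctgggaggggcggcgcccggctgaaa
CCAAT was found in 4 of the 9 member windows, those of Sdc1, Prdm1, Ell2 and the inner one of Fkbp11. The octamer ATGCAAAT, an element of immunoglobulin promoters, was found in 0 of the 9 and in 1.74% of all windows. None of the matches in member windows overlapped another.

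The genes of IgA assembly and export were nearly level. Jchain, whose product links IgA into dimers and is required for binding to the polymeric immunoglobulin receptor, read 10732 in transgenic and 9809 in wild-type tissue. That is a difference of 0.13, and 27.8% of genes were at least as high. Pigr read 13821 against 15231 at 1455490_at and 9831 against 9010.3 at 1450060_at. The differences were -0.14 and 0.13, on opposite sides of 0 and inside the spread between probe sets, so no direction is given for Pigr. These are bright probe sets on arrays whose highest intensities were 24147 and 25799, and saturation could not be checked from these values.

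**Figure D3:**
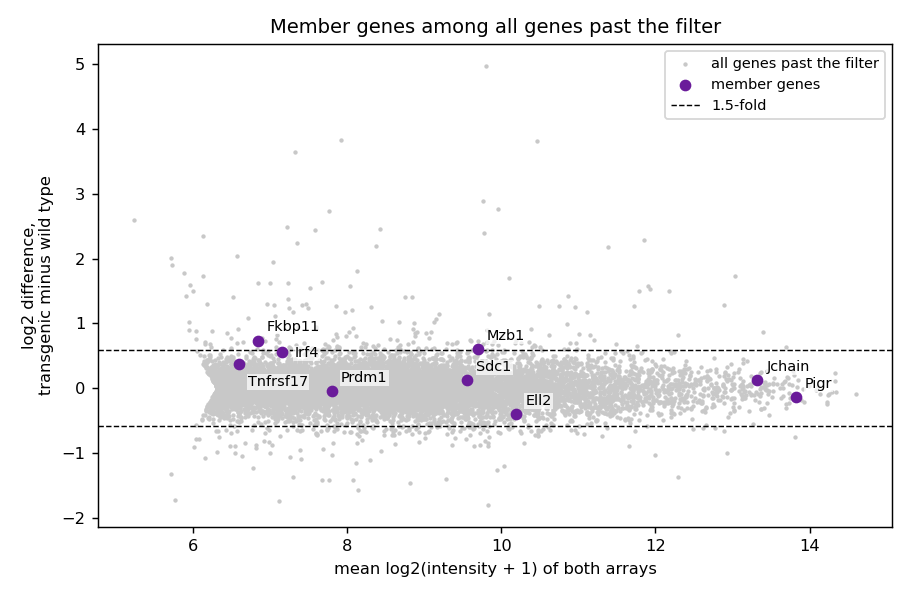
Log2 difference, transgenic minus wild type, against the mean log2 intensity of both arrays for all 11862 genes past the filter (grey) and the 9 members (purple), 1 probe set per gene, with dashed lines at 1.5-fold. Fkbp11 (0.72) and Mzb1 (0.60) lie just above the upper line, Irf4 (0.56) just under it, and no member lies beyond the lower line.

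Relatives of the members, listed by family, showed few differences of 1.5-fold. Over all genes past the filter, 1.68% were higher and 1.45% lower by as much. In families this small, a count of 0 does not set a family apart from all genes. Among FK506-binding proteins, 9 of the 11 named on the array passed the filter and Fkbp11 was the 1 past 1.5-fold. The next highest was Fkbp5, at 0.26, and the lowest was Fkbp1a, the cytosolic target of tacrolimus, at -0.27. Fkbp2 and Fkbp9, further isomerases of the ER, differed by -0.0020 and 0.028. Of 8 interferon regulatory factors past the filter, 0 passed 1.5-fold. Irf4 was the highest at 0.56, and Irf8, which has roles in B cells and macrophages, was the lowest at -0.30 (1036 against 1272). The syndecans Sdc2, Sdc3 and Sdc4 differed by -0.049, -0.024 and -0.11, with the 4 probe sets of Sdc2 between -0.13 and 0.43.

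The receptors of BAFF and APRIL lay on both sides of 0. Tnfrsf13c, the BAFF receptor of mature B cells, read 95.3 in transgenic and 154 in wild-type tissue, a difference of -0.68 and 1.61-fold lower. Tnfrsf13b, which encodes TACI, read 162 against 144, a difference of 0.17, beside the 0.37 of Tnfrsf17. In the ELL group, 6 of 8 genes past the filter lay below 0 and 0 passed 1.5-fold. Ell2 was the lowest, Cdk9, the kinase of the elongation factor P-TEFb, differed by -0.31 and Aff1, a scaffold of the super elongation complex, by -0.30, each with another probe set above 0. Eaf2, an ELL-associated factor, was the highest at 0.30.

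Other plasma cell and immunoglobulin genes lay mostly above 0 by small amounts. Of 12 past the filter, 11 read higher in the transgenic pool, and the median was 0.20. Over all genes past the filter, 6095 of 11862 lay above 0. By at least 1.5-fold, 1 was higher and 0 were lower, beside 1.68% and 1.45% of all genes past the filter. The 1 past 1.5-fold was Txndc5, an ER disulphide isomerase, which read 2499 in transgenic and 1648 in wild-type tissue, a difference of 0.60. Its second probe set lay at 0.54. Igha, the IgA heavy chain, read 22300.5 against 18935 at the brightest of its 3 probe sets, a difference of 0.24, and the 3 ran from 0.21 to 0.30. Ighm, the IgM heavy chain, differed by 0.15 at its brightest probe set, but its 11 probe sets ran from -0.054 to 1.09. Pou2af1, a B cell coactivator, differed by 0.22 and Txndc11 by 0.39. Cd38, Igkc and Iglc1 had no probe set of their own name and were not analysed here.

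In the list of ER folding and secretion genes, 13 of 17 genes past the filter lay above 0, with a median of 0.083. Over all genes past the filter, 6095 of 11862 lay above 0. Xbp1 and Derl3 are also in the list of other plasma cell genes, so the lists are not separate readings. By 1.5-fold, 1 was higher and 0 were lower, beside 1.68% and 1.45% of all genes past the filter. Ssr4, a subunit of the translocon-associated protein complex, read 3057 against 1829, a difference of 0.74, but its 3 probe sets ran from 0.20 to 0.74. Xbp1 read 5031 against 4832, a difference of 0.058, and its 4 probe sets ran from -0.24 to 0.43. Hspa5, the ER chaperone BiP, was the lowest at -0.24. Derl3, of the ER degradation machinery, differed by 0.25. Other probe sets reached 0.53 in Sel1l, of the same machinery, and 0.43 in the chaperone gene Hsp90b1. By the mean over probe sets, Ssr4 was the highest of the list at 0.39. Sel1l and Pdia6, a disulphide isomerase, lay at 0.28 by that mean, beside 0.21 in Fkbp11 and 0.60 in Mzb1.

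Genes for IgA switching, plasma cell survival and homing lay on both sides of 0. Of 13 past the filter, 7 lay above 0 and 6 below, and the median was 0.10. By 1.5-fold, 1 was higher and 1 was lower, beside 1.68% and 1.45% of all genes past the filter. With the mean over probe sets the median was -0.0039, but the filter, applied to those means, kept a different set of genes. Tnfsf13b, which encodes the survival factor BAFF, read 377 in transgenic and 231 in wild-type tissue, a difference of 0.71, with its 3 probe sets between 0.25 and 0.71. Cxcr4, a chemokine receptor of B cells, plasma cells and other leukocytes, read 48.2 against 103, 2.12-fold lower, and passed the filter through the wild-type pool alone. Ccr10 and Ccr9, gut homing receptors, differed by 0.31 and 0.34, though the 5 probe sets of Ccr9 ran from -0.085 to 0.58. Their ligands Ccl28 and Ccl25 differed by -0.074 and -0.17, with other probe sets of both above 0. The cytokines Il5, Il6, Il10 and Il21 were below the filter in both pools.

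**Figure D4:**
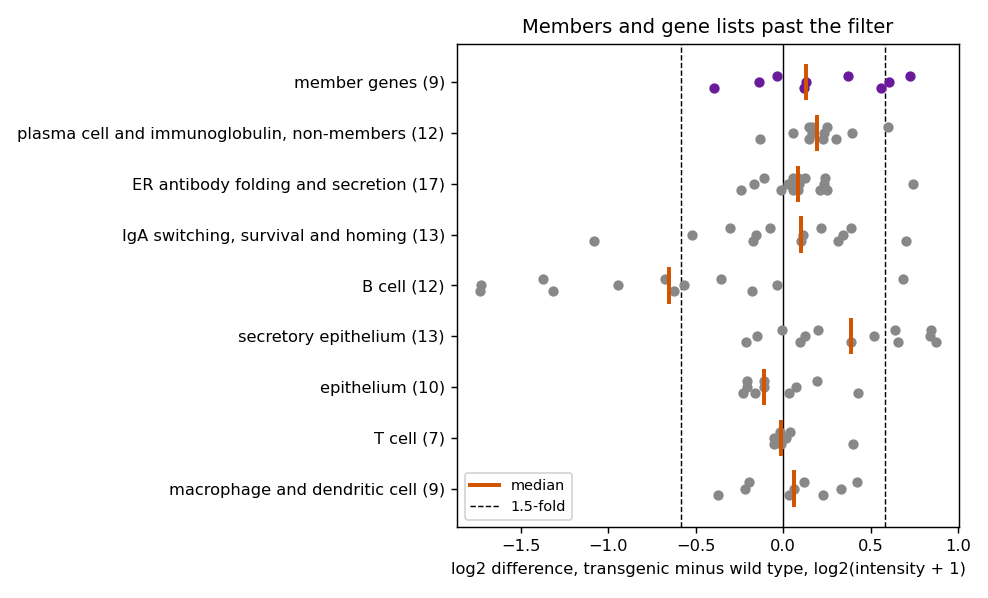
Log2 difference, transgenic minus wild type, for the 9 members (purple) and the genes past the filter of 8 lists (grey, number in brackets), 1 point per gene, with the median of each list as an orange bar and dashed lines at 1.5-fold. The B cell median of -0.65 and the secretory epithelium median of 0.39 lie farthest from 0 at these settings, while the member median is 0.13.

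Genes of B cells, from which plasma cells arise, read lower in the transgenic pool. Of 12 past the filter, 11 lay below 0, 7 were lower by 1.5-fold and 1 was higher, and the median was -0.65. Over all genes past the filter, 1.45% were lower and 1.68% higher by as much. Of the 12, 4 passed the filter through the wild-type pool alone, and over all 14 named on the array, unfiltered, the median was -0.59. Ms4a1, which encodes CD20, read 74.9 against 251, and Cr2, Fcmr and H2-Ob were also past 2-fold lower. Among these named genes only Fcmr, at 97.2 against 254, passed the filter in both pools. Bach2, a repressor that holds back Prdm1 and the plasma cell fate, read 120 against 231, a difference of -0.95, though its 3 probe sets ran from -1.10 to 0.07. Spib, an Ets factor of B cells that is also made by epithelial M cells, was the exception, at 266 against 165, a difference of 0.69. Of the antagonists of the plasma cell programme, 6 of 7 passed the filter and 3 of the 6 lay below 0. By the mean over probe sets, Bcl6 and Etv6, which lay below 0 here, were at 0.13 and 0.043. The median of these antagonists was -0.050. It was 0.13 with that mean, over the genes whose means passed the filter. Pax5, the keeper of B cell identity, read 55.3 against 60.2, below the filter.

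Several members are also expressed outside plasma cells, and markers of those cells were measured beside them. Of 13 secretory epithelium genes, 10 lay above 0. By 1.5-fold, 5 were higher and 0 were lower, beside 1.68% and 1.45% of all genes past the filter, and the median was 0.39. Without the less specific probe sets this median was 0.20, and under a filter at the 75th percentile it was 0.51. Creb3l4, which counts among the 10, lay below the filter in wild-type tissue, at 61.0 against 87.9 in transgenic tissue. All 13 genes named on the array are in this list, so the median with no filter was also 0.39. The summed intensity of the 13 genes was 94408 in transgenic and 83087 in wild-type tissue. Clca1, Atoh1 and Spdef had the largest differences, 0.87, 0.85 and 0.84. For the general epithelium list the sums were 84063 and 88358, with 4 of 10 genes above 0, a median of -0.11 and the largest difference, 0.43, in the keratin Krt18. For T cells the sums were 4882 and 4861.5, and the median of 7 genes was -0.010, with the largest difference, 0.40, in Cd8a, whose probe sets ran from -0.13 to 0.40. For macrophages and dendritic cells they were 5641 and 6064, with a median of 0.061 over 9 genes and the largest difference, 0.43, in the chemokine receptor Cx3cr1. The B cell sums were 10102 and 11121, of which Cd74, a bright gene of all cells that present antigen, gave 8545 and 8758. The other 13 genes summed to 1557 and 2363. No marker was at 0, since every probe set has a positive intensity. The part of these cell types in the differences of Mzb1, Fkbp11 and Irf4 was not tested.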

How the data were processed

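Total RNA (10 µg per pool) was biotin-labelled and hybridised to mouse expression arrays, per the labels' protocols. The authors deposited linear intensities per probe set, made with RMA, per the submitters' processing notes. RMA corrects background, equalises the distributions of arrays and summarises probes, so a shift shared by most genes could not be seen. For the chip annotation and genome build, the sources used here give none. Samples were grouped by their source label.

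Gene names came from a platform annotation table, in which 34958 probe sets had 1 symbol, 932 several and 9211 none. Probe sets with 1 symbol name genes here. The symbols of all 9 members matched the RefSeq gene table. Differences use log2(intensity + 1), and understate change at dim genes. The filter, 6.31 on this scale, is the median of all values. The computation was tested on simulated data. Python 3.11.15, pandas 2.3.3, numpy 2.4.6 and matplotlib 3.10.9 were used.

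Members, the 14 gene lists and thresholds were chosen with earlier results of these data known. Named by rule were all members, family genes, and in each list the genes past 2-fold, the 3 largest past 1.5-fold or else the single largest. Further named genes were picked with their values in view. The alternatives were the mean over probe sets, leaving out less specific probe sets, a pseudocount of 16 or none, quantile normalization, no filter and a filter at the 75th percentile.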

Additional observations from a re-analysis of the deposited data

How the results depend on the processing

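Over 7 alternatives, 109 of 115 values for the members' counts and median and for the main lists' medians stayed within 1.5 times the reported count or within 0.23 of the reported median. That tolerance is wider than most of the medians, so it does not show that they hold their size or sign. Many of the 115 are member counts of 0, lower by 1.5-fold or past 2-fold, which stayed 0 in every alternative. With member differences from -0.39 to 0.72 these counts could hardly move, so they say little about robustness. With the mean over probe sets the member median went from 0.13 to 0.061 and the switching, survival and homing median from 0.10 to -0.0039. The filter was applied to the means, which left 8 members and a different set of homing genes. These shifts therefore do not show the effect of averaging alone. The secretory epithelium median of 0.39 ran from 0.20 without the less specific probe sets to 0.51 under the raised filter. The count of member genes higher by 1.5-fold was 2 as reported and 1 with the mean over probe sets, 1 without the less specific probe sets and 1 when the filter was raised to the 75th percentile, which 5 members passed. The count of member probe sets higher by 1.5-fold was 2 as reported and 1 under the last pair of these. Mzb1 stayed past 1.5-fold in 7 of 7 alternatives, between 0.59 and 0.61, and Fkbp11 in 4 of 7. These counts are not comparable. Mzb1 has 1 probe set, not of a less specific type. Averaging, leaving out probe sets or moving the filter therefore could not change its difference. Fkbp11 turned to -0.083 without the less specific probe sets, since only a probe set below the filter was left. Irf4 ran from 0.21 to 0.56. The B cell median was -0.65 as reported and -0.36 under that raised filter, where fewer genes remain and 2 instead of 7 were lower by 1.5-fold. With the mean over probe sets, the count higher by 1.5-fold went from 1 to 0 for ER genes, for other plasma cell genes and for the switching, survival and homing genes. Without the less specific probe sets it went to 0 for ER genes and to 2 for other plasma cell genes. The 1 homing gene lower by 1.5-fold was lost under the raised filter. The median of all genes stayed between 0 and 0.018. The number of arrays, 1 per group, limits the precision of every value. No paired analysis was possible because each group holds 1 array.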

Other observations

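The antibody chains that plasma cells secrete were read by 43 probe sets annotated to 1 immunoglobulin gene each, chosen as a group after their values were seen. Of these, 27 passed the expression filter, and 22 of the 27 read higher in the transgenic pool, beside 11828 of all 23238 probe sets past the filter. By 1.5-fold, 9 were higher and 1 was lower, beside 1.92% and 1.76% of all probe sets past the filter. By 2-fold, 5 were higher and 1 was lower, beside 0.512% and 0.194%. Of the 27, 2 were past the filter in transgenic tissue only and 1 in wild-type tissue only. Of the 24 that passed it in both pools, 8 were higher by 1.5-fold and 0 were lower, and 5 were higher by 2-fold. The share over all probe sets past the filter in both pools was not computed. The median was 0.46 over the 27 and 0.42 over the 24, beside 0.0071 over all probe sets past the filter. Variable segments share sequence, so probe sets of related segments are not independent readings. Some of the probe sets higher by 1.5-fold are also of the less specific type.

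The chains differed in size of difference. Iglv1, a variable segment of the lambda light chain, read 7776 in transgenic and 2744 in wild-type tissue at its brightest probe set, 2.83-fold higher. Another read 517 against 278. Both of these Iglv1 probe sets are of the less specific type. The remaining one, 1427292_at, read 34.6 against 27.9, a difference of 0.30, below the filter in both pools. The kappa segments Igkv15-103, Igkv14-111 and Igkv6-14 read 1372 against 616, 578 against 285 and 661 against 328. Of 13 kappa probe sets past the filter, 5 were higher by 1.5-fold, beside 1.92% of all probe sets past the filter, and 2 lay below 0. One Ighm probe set, 1452535_at, read 881 against 413, while the brightest Ighm probe set differed by 0.15. The 1 heavy chain variable probe set past the filter, for Ighv14-2, read 68.5 against 142, a difference of -1.04, and passed the filter through the wild-type pool alone. The 3 Igha probe sets lay between 0.21 and 0.30, at intensities from 17157 to 22300.5, near the top of the range of both arrays. Whether these differences exceed the spread between mice was not tested, since each group holds 1 pool.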
